A study of Mus musculus with 12 samples.

Results

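The genes described here are the long protein-coding genes of Ba/F3 cells, those whose GENCODE M21 annotation on mm10 has an end minus start of 200000 bases or more. Of the 21974 protein-coding genes in the gene count table, 998 reached that span. A gene was kept if it had at least 10 counts in each of the 12 libraries, which left 343 long genes among 11066 protein-coding genes with that floor. Of the long genes left out, 126 were listed at 0 in all libraries and 529 had counts but fell under the floor in at least 1 library, 49 of which passed the filter of the statistical fit. The 343 genes made up 34.4% of all long genes, whereas 51.1% of shorter protein-coding genes had the floor. All 343 entered the tests over 17197 genes. The comparison set was the 10723 shorter protein-coding genes with the same floor. For medians, the 10695 of them within the range of levels of the long genes were weighted to the same distribution of expression level.

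Ba/F3 is an immortal mouse line labelled as pro-B cells that needs interleukin-3 (IL-3) unless an oncogene replaces its signal. RNA was sequenced from 4 biologically independent lines in each of 3 groups. Lines labelled MSCV held an empty retroviral vector and grew in 0.5 ng/ml murine IL-3, while those labelled BCR-ABL1 and SFPQ-ABL1 expressed the kinase ABL1 fused to BCR or to SFPQ and grew with no IL-3. Both comparisons with MSCV therefore differ in the oncogene and in the cytokine, which cannot be told apart, and they share the MSCV lines. SFPQ-ABL1 against BCR-ABL1 is the only comparison made in the same medium. Whether a line is a clone or a pool is not given in the sources used here, and all lines are labelled as the Ba/F3 cell line.

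SFPQ is an RNA-binding protein of the DBHS family that forms dimers with NONO and PSPC1, builds paraspeckles on the RNA Neat1 and takes part in splicing. It also travels with RNA polymerase II, and loss of SFPQ in neurons and other cells lowers transcripts of very long genes, whose long introns keep the polymerase on the template for hours. In the SFPQ-ABL1 fusion the front part of SFPQ is joined to the kinase. The question of the comparison is whether long genes behave differently in cells that carry that fusion.

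The promoters of 4 long genes on which the results turn are shown because they differ in composition and cover the largest rise (Trio), a rise in a metabolite transporter (Slc7a11), the largest fall (Pik3c2g) and a fall in both fusion groups (Prkca). Each is the 250 bases before a RefSeq start on GRCm38.p6, read 5′ to 3′ on the strand of the gene. Capitals mark matches, on either strand, to TGATGNAA, of the type that ATF4 binds, to TTCNNNGAA, of the type that STAT factors bind, to the E-box motif CACGTG, or to TATAAA, which marks core promoters of the TATA type.
Trio: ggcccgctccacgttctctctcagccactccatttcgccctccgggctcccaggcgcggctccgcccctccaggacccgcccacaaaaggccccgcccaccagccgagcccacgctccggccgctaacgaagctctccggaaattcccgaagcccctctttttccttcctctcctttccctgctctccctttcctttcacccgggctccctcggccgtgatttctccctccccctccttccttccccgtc
Slc7a11: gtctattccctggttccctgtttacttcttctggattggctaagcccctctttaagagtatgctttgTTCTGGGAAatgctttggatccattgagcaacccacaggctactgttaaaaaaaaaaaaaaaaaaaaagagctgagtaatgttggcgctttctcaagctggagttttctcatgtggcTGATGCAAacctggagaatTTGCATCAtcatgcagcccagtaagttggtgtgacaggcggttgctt
Pik3c2g: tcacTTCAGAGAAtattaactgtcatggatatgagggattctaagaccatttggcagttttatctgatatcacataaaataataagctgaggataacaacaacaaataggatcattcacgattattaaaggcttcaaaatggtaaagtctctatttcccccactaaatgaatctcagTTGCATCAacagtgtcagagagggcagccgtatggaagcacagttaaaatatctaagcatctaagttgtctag
Prkca: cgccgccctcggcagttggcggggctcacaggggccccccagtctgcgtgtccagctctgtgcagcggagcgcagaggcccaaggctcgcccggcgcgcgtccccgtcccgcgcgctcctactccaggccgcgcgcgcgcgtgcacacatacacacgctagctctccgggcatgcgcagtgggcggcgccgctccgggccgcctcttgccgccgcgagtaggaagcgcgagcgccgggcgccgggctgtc
These stretches lie at chr15:28025849-28026098 on the minus strand, chr3:50443614-50443863 on the minus strand, chr6:139613822-139614071 on the plus strand and chr11:108343889-108344138 on the minus strand. The Pik3c2g start lies 26852 bases inside the GENCODE gene, and the other 3 lie within 42 bases of the 5′ end of their genes. The Prkca stretch was 76.8% G and C with 39 CpG pairs, and the Trio stretch was 66.8% with 20. The stretch of Slc7a11 was 43.2% and that of Pik3c2g 36.0%, each with 2 CpG pairs and with matches to TGATGNAA and TTCNNNGAA, while Trio and Prkca held none of the 4 motifs in this window.

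RefSeq promoters could be matched to 262 of the 343 long genes, with 407 starts. Their median G and C content was 58.8%, against 52.4% over all 32851 promoters of the table, and their median number of CpG pairs was 13 against 6. TATAAA was in 7.86% of the promoters of long genes and in 12.4% of all. TGATGNAA was in 3.93% against 3.45%, TTCNNNGAA in 6.88% against 7.02%, and CACGTG in 6.14% against 6.02%. Promoters of long genes were thus richer in CpG and poorer in TATAAA, and the other 3 motifs were at shares near those of all promoters. The table of all promoters includes genes that Ba/F3 cells do not express.

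Gene counts summed to between 59355018 and 80616227 per library, and exon counts to between 10061439 and 15560875. Levels are given as CPM, counts scaled to the library size with TMM factors, or as CPM per kilobase of exon (RPKM) where genes are compared with each other. Lines of a group differed by more than counting noise, with a chi-square per degree of freedom of 33.1 to 182 between pairs, so no pair of libraries agreed within it. Of 16 early B cell markers, 13 were under 1 CPM as a mean, among them Pax5, Ebf1, Rag1 and Dntt, and Il7r was listed at 0. The label of a pro-B cell was therefore not borne out by those genes, although Cd79a and Cd79b were at 93.4 ± 4.05 and 49.6 ± 5.50 CPM in MSCV (SD, n = 4). The 16 markers together summed to 430 to 539 CPM in MSCV lines, more than Cd79a and Cd79b hold, so the list was mixed. Summed markers of fibroblasts stayed between 0.420 and 1.81 CPM per library, and those of T and NK cells between 9.54 and 25.2 CPM. In MSCV lines, markers of mast cells and basophils summed to 1342 to 1637 CPM. Those of erythroid and megakaryocyte cells summed to 1315 to 2076 CPM there, and those of IL-3-dependent progenitors to 1790 to 3978 CPM. Fewer cells of a type and less RNA per cell cannot be told apart in these bulk libraries.

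Sfpq itself was measured by the gene table at 277, 323, 255 and 258 CPM in MSCV lines 1 to 4, at 276, 212, 297 and 324 CPM in BCR-ABL1 lines and at 426, 369, 326 and 315 CPM in SFPQ-ABL1 lines. Its mean was highest in SFPQ-ABL1, 1.3-fold above BCR-ABL1 (0.37 ± 0.14 (SE) on the log2 scale, adjusted p = 0.0625) and 1.29-fold above MSCV (adjusted p = 0.174), but the lines overlapped and neither difference passed the test. On exons in the part of Sfpq nearer the 5′ end (proximal), SFPQ-ABL1 lines 1 to 4 had 7527, 3479, 9358 and 7708 counts, and the other 8 lines 1720 to 2750. Distal exons had 437 to 838 counts in SFPQ-ABL1 lines and 440 to 738 in the others. The log2 ratio of distal to proximal counts was −3.17, −2.27, −3.67 and −4.14 in SFPQ-ABL1 lines, below all MSCV lines (−1.79 to −1.49) and all BCR-ABL1 lines (−2.21 to −1.72). The change was −1.67 ± 0.30 (SE) against MSCV (limma adjusted p = 0.138) and −1.38 ± 0.30 against BCR-ABL1 (limma adjusted p = 0.386), and with library medians taken out, a choice made after seeing the data, −1.55 (limma adjusted p = 0.126) and −1.52 (limma adjusted p = 0.0848). None passed the adjusted threshold, and the part of reads of the fusion in the gene count cannot be read off these counts. Nono, its main dimer partner, was at 384 ± 32.7, 365 ± 41.6 and 406 ± 29.1 CPM, and Pspc1 at 47.2 ± 10.7, 53.8 ± 11.5 and 63.5 ± 9.69 CPM (SD, n = 4), with overlapping lines in every comparison of both genes. Adjusted p-values throughout are from the edgeR quasi-likelihood test with Benjamini-Hochberg adjustment over the 17197 genes unless another tool is named, and a gene is called where that value is under 0.05.

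The long genes spanned 200.2 to 2244.9 kb, with a median of 279.4 kb and quartiles of 226.6 and 386.6 kb. Exons covered a median of 3.06% of the span, in a median of 23 separate exon blocks. The longest intron had a median length of 77442 bases, which was 26.3% of the span, and the longest of all, 593607 bases, lay in Cntnap2. Most long genes, 298 of 343, held at least 1 other annotated gene inside them, with a median of 3, and 40 held a protein-coding one. Strand use in counting is not given in the sources used here, so reads of an overlapping or antisense gene cannot be told apart from those of the long gene that holds it. They lay on all autosomes and the X chromosome, from 10 each on chromosomes 7 and 19 to 32 on chromosome 2. RefSeq listed 341 of them, and 20 had a RefSeq span under 200000 bases, among them Slc7a11, whose RefSeq span was 134151 bases against 551.1 kb in GENCODE.

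Per length of exon, long genes had lower gene counts than short ones. Whether gene counts hold intronic reads is not given in the sources used here, so these RPKM values are gene counts over exon length and may not be levels of spliced RNA alone. The median RPKM was 8.88 for genes under 20 kb, 8.19 from 20 to 50 kb, 7.11 from 50 to 100 kb and 5.77 from 100 to 200 kb. It was 4.33 for the 296 genes from 200 to 500 kb and 2.12 for the 47 genes of 500 kb or more. The exonic length used as divisor rose over these classes, from a median of 3019 bases under 20 kb to 12580 bases at 500 kb or more. Median CPM did not fall steadily, at 27.7 under 20 kb, 54.0 from 50 to 100 kb, 34.9 from 200 to 500 kb and 20.7 at 500 kb or more. The spread between lines was alike, with a median within-group SD of log2 CPM of 0.209 for long genes and 0.205 for shorter genes of the same level. Exon counts were a median of 12.5% of the gene count in long genes and 13.0% in shorter genes, so the share did not differ much with span. It was 7.52% in 248 genes with 1 exon and 1 transcript, none of them long. The cause of the low share was not tested.

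As a class, the long genes differed from shorter genes of the same level by less than the spread between lines. In MSCV lines 1 to 4 the median deviation of long genes from their own average, less that of level-matched shorter genes, was −0.026, −0.13, 0.066 and 0.083 on the log2 scale. For BCR-ABL1 it was −0.11, 0.12, −0.027 and 0.089, and for SFPQ-ABL1 −0.094, −0.052, 0.014 and 0.065, in the same order of lines. Each group thus had lines on both sides of 0, and the 3 groups overlapped throughout. The group means were −0.00097 ± 0.097, 0.018 ± 0.10 and −0.017 ± 0.071 (SD, n = 4). In the fits, the median log2 fold change over long genes less that over matched shorter genes was 0.013 with BCR-ABL1 over MSCV, −0.018 with SFPQ-ABL1 over MSCV and −0.039 with SFPQ-ABL1 over BCR-ABL1. These differences are smaller than the pooled SD between lines of a group, 0.092. The first depends on how shorter genes were matched: by exonic length in place of level, a choice made after seeing the data, it was −0.13, and the others were −0.078 and 0.047.

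**Figure D1:**
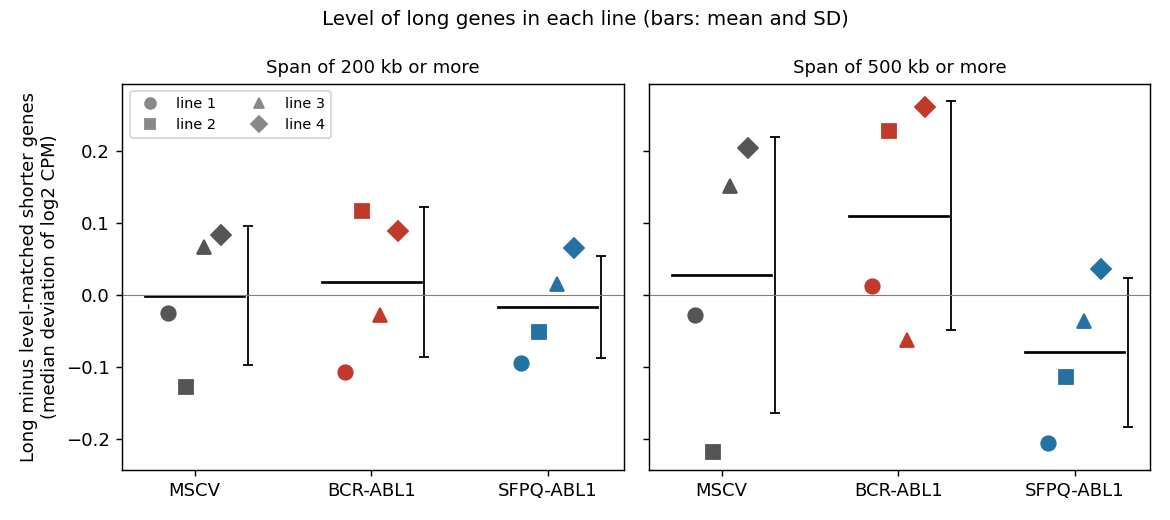
Median deviation of log2 CPM of long genes minus that of level-matched shorter genes (y axis, log2 units) in each of the 4 lines of MSCV, BCR-ABL1 and SFPQ-ABL1, for spans of 200 kb or more (left, 343 genes) and 500 kb or more (right, 47 genes). Points are lines, horizontal bars are means and error bars are SD. The groups overlap in both panels, and the SFPQ-ABL1 mean is the lowest at 500 kb or more.

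The share of all gene counts that fell in long genes was 2.51 ± 0.218% in MSCV, 2.18 ± 0.122% in BCR-ABL1 and 2.38 ± 0.144% in SFPQ-ABL1 (SD, n = 4). The lowest and highest lines were 2.29% and 2.73%, 2.06% and 2.31%, and 2.21% and 2.55%, so the groups overlapped.

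The 47 genes of 500 kb or more were the exception in size of the difference, though not in its separation. Their deviation from matched shorter genes was −0.028, −0.22, 0.15 and 0.20 in MSCV lines 1 to 4, 0.013, 0.23, −0.063 and 0.26 in BCR-ABL1 lines and −0.21, −0.11, −0.037 and 0.036 in SFPQ-ABL1 lines. The group means were 0.027 ± 0.19, 0.11 ± 0.16 and −0.080 ± 0.10 (SD, n = 4). Of the lines, 3 of 4 SFPQ-ABL1 lines lay below 0, as did 2 of 4 MSCV lines and 1 of 4 BCR-ABL1 lines. In the fits, the median change of these genes less that of matched shorter genes was 0.056 with BCR-ABL1 over MSCV, −0.14 with SFPQ-ABL1 over MSCV and −0.25 with SFPQ-ABL1 over BCR-ABL1. The last is larger than the SD between lines of any group and yet the lines overlapped.

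In BCR-ABL1 against MSCV, 60 long genes rose and 67 fell, or 37.0% of the 343. Over all genes tested 32.1% were called, 15.8% higher and 16.3% lower, and among shorter protein-coding genes with the floor 39.0%. The long genes were thus called about as often as other genes of this level. At 2-fold or more, 12 rose and 18 fell, or 3.50% and 5.25%, against 4.48% and 4.54% of all genes. The call went with separate lines in 48 of the risen and 57 of the fallen genes, where all 4 lines of a group lay outside the range of the other. Over all genes tested 13.6% and 13.9% did so.

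The balance of calls followed span in a curve rather than a line. Genes under 20 kb were higher in 13.5% and lower in 24.7%, and genes of 50 to 100 kb higher in 26.7% and lower in 13.8%. From 200 to 500 kb, 17.6% were higher and 19.3% lower, and at 500 kb or more, 8 genes (17.0%) were higher and 10 (21.3%) lower. In SFPQ-ABL1 against BCR-ABL1 the shares ran the other way, with 17.8% higher and 11.2% lower under 20 kb and 12.9% and 18.3% from 50 to 100 kb. These 2 comparisons share the BCR-ABL1 lines. From 200 to 500 kb, 16.6% were higher and 15.5% lower there, and at 500 kb or more 12.8% and 21.3%.

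**Figure D2:**
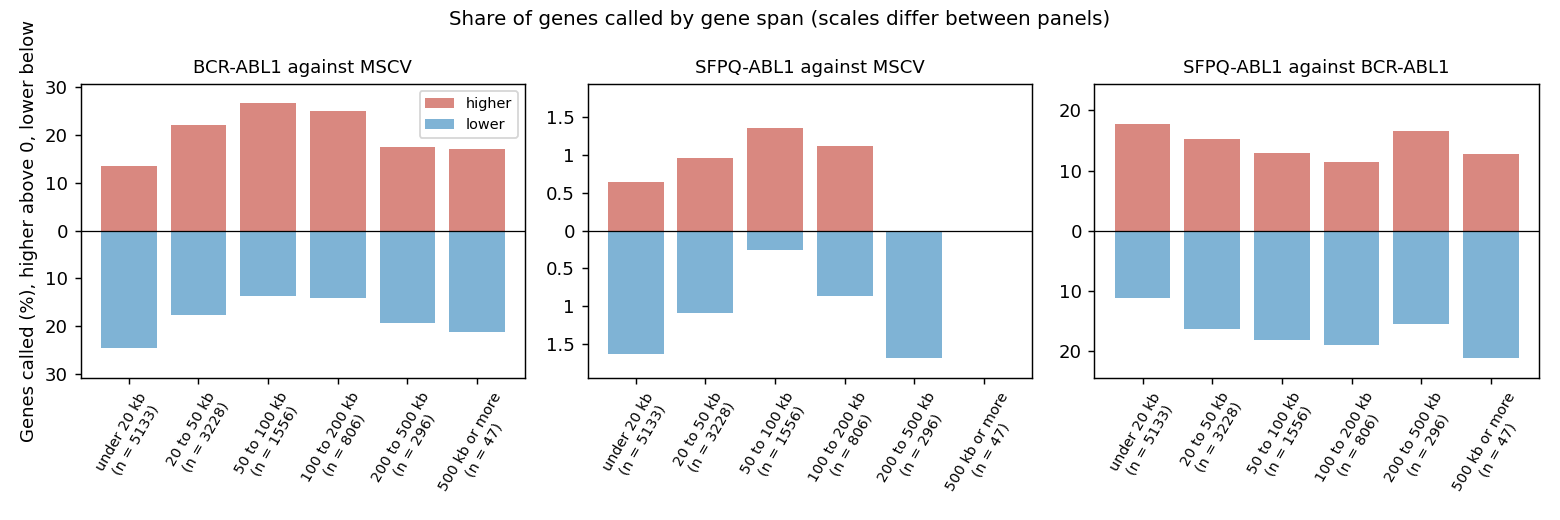
Percent of protein-coding genes with the count floor that were called higher (above 0) or lower (below 0) in each class of gene span, in the 3 comparisons. Scales differ between panels, and the last class holds 47 genes. In BCR-ABL1 against MSCV the share called higher peaks at 26.7% from 50 to 100 kb and is 17.6% from 200 to 500 kb.

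**Figure D3:**
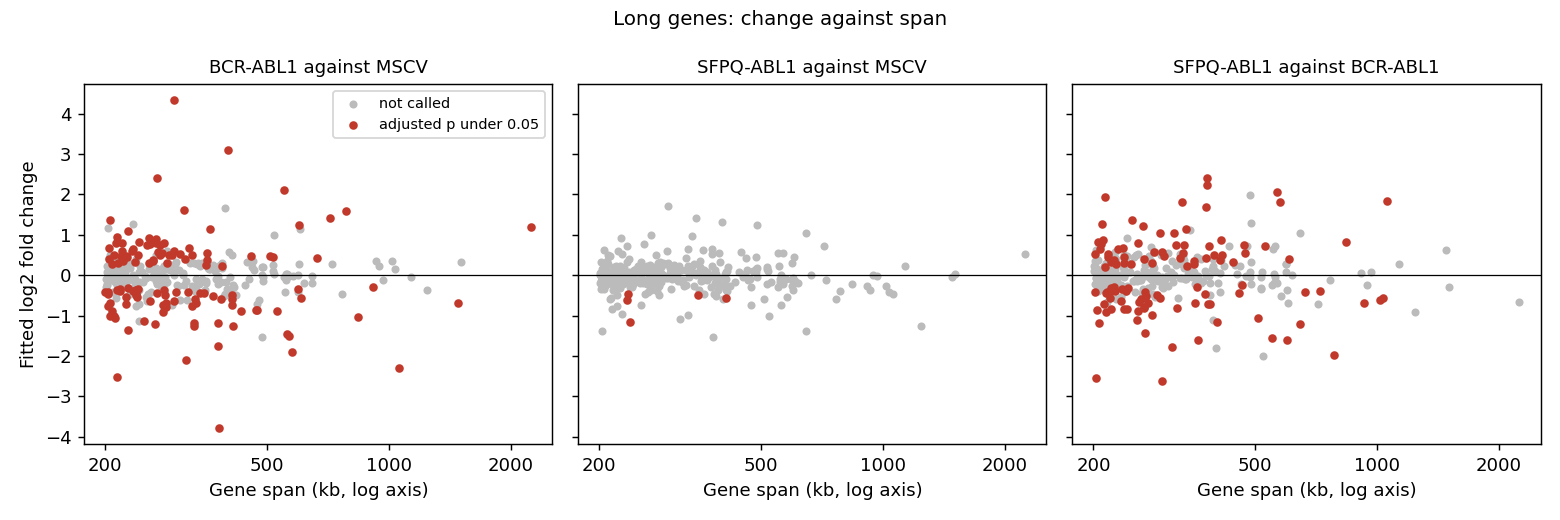
Fitted log2 fold change (y axis) of each of the 343 long genes against its span in kb (log axis), with genes called at an adjusted p under 0.05 in red. Changes lie on both sides of 0 at all spans in BCR-ABL1 against MSCV (60 higher, 67 lower) and SFPQ-ABL1 against BCR-ABL1 (55 higher, 56 lower), and 5 genes are called, all lower, in SFPQ-ABL1 against MSCV.

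Among signalling genes, Trio, an exchange factor that activates small GTPases (chr15:27730651-28025848, minus strand, 295.2 kb), stood at 1.01, 0.78, 0.489 and 1.84 CPM in MSCV lines 1 to 4 and at 10.8, 26.2, 24.1 and 21.6 CPM in BCR-ABL1 lines 1 to 4. It rose 20.2-fold (4.33 ± 0.60 (SE) on the log2 scale, adjusted p = 2.26e-04), the largest rise of a long gene in any of the 3 comparisons, and every BCR-ABL1 line was above every MSCV line. The SFPQ-ABL1 lines were at 1.19, 2.31, 2.0 and 8.09 CPM, with line 1 inside the MSCV range, lines 2 and 3 just above it and line 4 apart. Its promoter is rich in CpG and holds none of the 4 motifs.

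Inpp4b, a phosphatase that removes a phosphate from the lipid products of phosphoinositide 3-kinase (chr8:81342556-82127914, plus strand, 785.4 kb), was at 26.8, 8.31, 15.3 and 14.9 CPM in MSCV and 27.5, 79.7, 37 and 51.8 CPM in BCR-ABL1 lines. It rose 3.0-fold (1.58 ± 0.46 (SE) on the log2 scale, adjusted p = 0.0184) with separate lines, but MSCV line 1 nearly reached BCR-ABL1 line 1. Without BCR-ABL1 line 2 the adjusted p was 0.0660, and without MSCV line 2 it was 0.0503. The formin Diaph2, which nucleates actin filaments, was at 24.3, 21.9, 25.4 and 26.5 CPM in MSCV and 39.2, 100.1, 54 and 70.5 CPM in BCR-ABL1, a 2.69-fold rise (1.43 ± 0.27 (SE) on the log2 scale, adjusted p = 0.00154).

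Pik3c2g, a class II phosphoinositide 3-kinase (chr6:139587220-139969280, plus strand, 382.1 kb), showed the largest fall. It was at 643, 1659.6, 1320.3 and 1942 CPM in MSCV lines, 179, 119, 28 and 80.6 CPM in BCR-ABL1 lines and 606, 407, 462 and 447 CPM in SFPQ-ABL1 lines. The groups were in the order MSCV, SFPQ-ABL1, BCR-ABL1 without any overlap. The fall in BCR-ABL1 was 13.7-fold (−3.78 ± 0.48 (SE) on the log2 scale, adjusted p = 1.24e-04), while the 2.9-fold difference of SFPQ-ABL1 from MSCV did not pass the test (−1.53 ± 0.44 (SE) on the log2 scale, adjusted p = 0.0935). Rap1gap2, a GTPase-activating protein for Rap1, went from 49.7 ± 22.4 CPM in MSCV to 19.5 ± 2.63 CPM in BCR-ABL1 (−1.35 ± 0.39 (SE) on the log2 scale, adjusted p = 0.017), and the call was lost without MSCV line 4 (adjusted p = 0.0532).

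Among adhesion and cell-surface genes, Lpp, a LIM-domain protein of focal adhesions (chr16:24393507-24992578, plus strand, 599.1 kb), was at 36.1, 35.8, 32.5 and 31.1 CPM in MSCV and 53.5, 94, 71.5 and 102 CPM in BCR-ABL1 lines. It rose 2.36-fold (1.24 ± 0.17 (SE) on the log2 scale, adjusted p = 2.30e-04), and the SFPQ-ABL1 lines, at 24.2, 27.2, 22.6 and 31.2 CPM, lay below the MSCV lines except for line 4, which was level with the lowest of them. Cntnap2, a cell-adhesion protein of neurons and the longest of the 343 genes, was at 3.26, 1.71, 2.76 and 4.24 CPM in MSCV and 4.27, 7.77, 8.17 and 7.33 CPM in BCR-ABL1, a 2.3-fold rise (1.20 ± 0.33 (SE) on the log2 scale, adjusted p = 0.0141). The groups did not overlap, but BCR-ABL1 line 1 and MSCV line 4 were almost level. Without MSCV line 2, BCR-ABL1 line 4 and SFPQ-ABL1 line 2 together, a choice made after seeing the data, the adjusted p was 0.0583.

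Of 10 neuron markers examined, 9 were under 1 CPM as a mean, and Syt1 was listed at 0. Their summed level was 14.6 to 25.8 CPM in MSCV, 4.12 to 4.72 CPM in BCR-ABL1 and 12.1 to 22.6 CPM in SFPQ-ABL1, so it was lower in every BCR-ABL1 line. Only 2 of the 10 passed the filter of the fit, and 1 was called lower in BCR-ABL1 against MSCV. The sum therefore does not show a fall over the list, and its part in the falls named here was not tested. Tns1, which links actin to integrins, fell 5.7-fold from 6.6 ± 2.11 to 1.16 ± 0.215 CPM (−2.51 ± 0.27 (SE) on the log2 scale, adjusted p = 4.43e-05), and Ank2, the ankyrin that ties membrane proteins to spectrin, fell 3.75-fold from 2.74 ± 0.678 to 0.73 ± 0.177 CPM (−1.91 ± 0.29 (SE) on the log2 scale, adjusted p = 3.98e-04). Focad, which encodes focadhesin, fell 4.31-fold from 3.94 ± 1.21 to 0.913 ± 0.201 CPM (−2.11 ± 0.27 (SE) on the log2 scale, adjusted p = 1.29e-04).

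Among transporters, Slc7a11, the exchanger that imports cystine for glutathione, was at 12.3, 6.76, 9.61 and 7.9 CPM in MSCV, 33.6, 46.4, 37.8 and 40.01 CPM in BCR-ABL1 and 13.7, 10.7, 12.6 and 16.8 CPM in SFPQ-ABL1 lines. It rose 4.31-fold in BCR-ABL1 (2.11 ± 0.19 (SE) on the log2 scale, adjusted p = 1.82e-05), and each BCR-ABL1 line was above each of the other 8. By its RefSeq span this gene would not count as long. Slc9a9, a sodium-proton exchanger of endosomes (560.5 kb), fell 2.76-fold from 25.1 ± 2.49 to 9.09 ± 4.54 CPM (−1.46 ± 0.28 (SE) on the log2 scale, adjusted p = 0.00174).

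Of genes in transcription, Med12l, a paralogue of a Mediator kinase-module subunit, was at 11, 6.79, 11.7 and 8.69 CPM in MSCV and 19.7, 43.4, 34.5 and 19.1 CPM in BCR-ABL1, a 3.05-fold rise (1.61 ± 0.39 (SE) on the log2 scale, adjusted p = 0.0067) with separate lines. Sox6, a transcription factor of the SoxD group, was at 17.2, 17.3, 37.1 and 39.7 CPM in MSCV and 12, 8.26, 9.06 and 9.84 CPM in BCR-ABL1, a 2.84-fold fall (−1.51 ± 0.42 (SE) on the log2 scale, adjusted p = 0.0146) that limma-voom did not call (adjusted p = 0.0580). Prune2 rose 5.33-fold at low levels, from 0.544 ± 0.175 to 2.9 ± 1.11 CPM (2.41 ± 0.41 (SE) on the log2 scale, adjusted p = 8.41e-04).

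**Figure D4:**
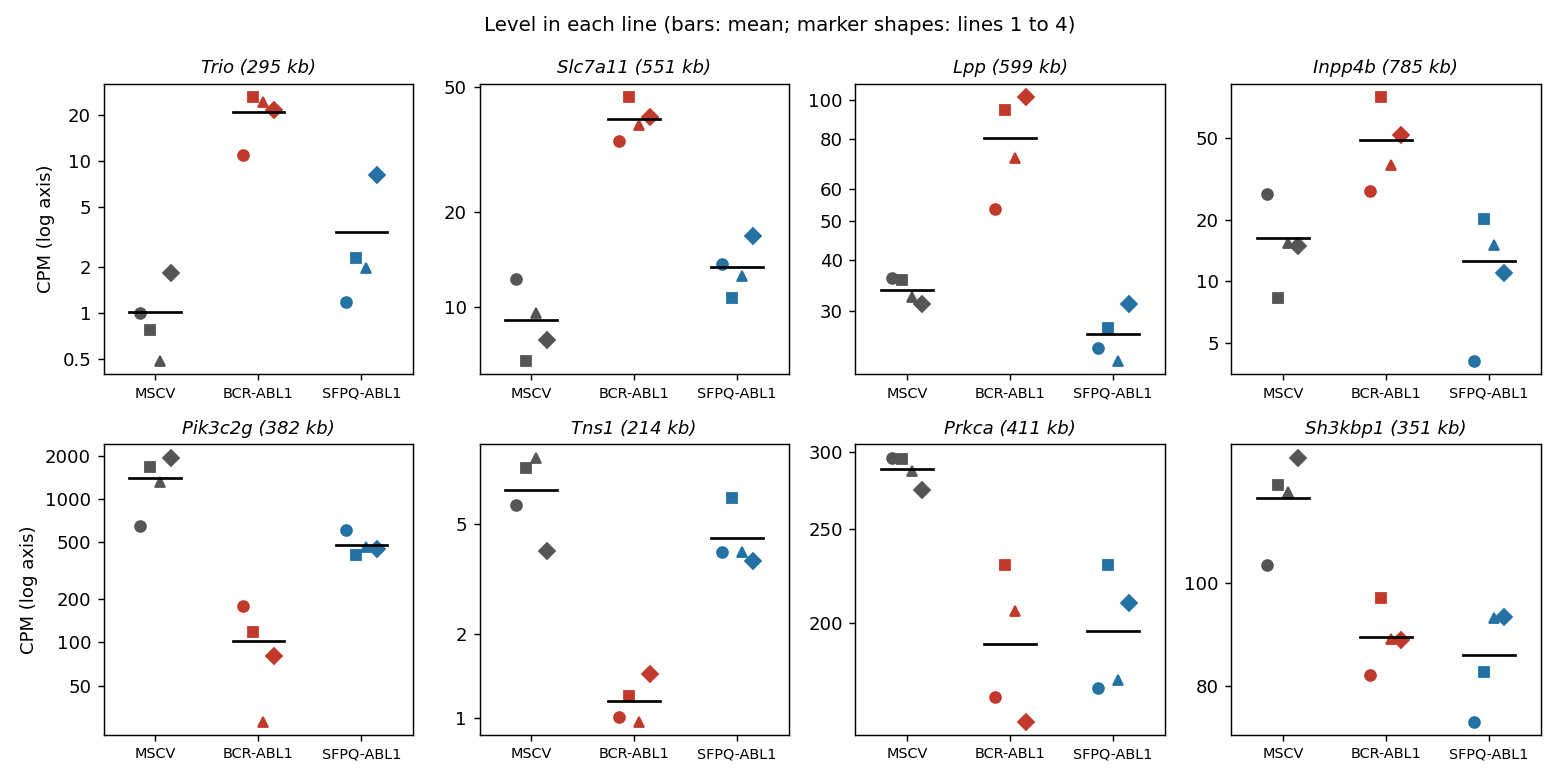
CPM (log axis) of 8 long genes in each line, with points for lines 1 to 4 and bars for the mean of a group. Trio, Slc7a11, Lpp and Inpp4b are highest in BCR-ABL1, Pik3c2g and Tns1 are lowest in BCR-ABL1, and Prkca and Sh3kbp1 are lower in both fusion groups than in every MSCV line.

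In SFPQ-ABL1 against MSCV, no long gene was called higher by edgeR and 5 were called lower, or 1.46% of the 343, against 1.79% of all genes tested (0.814% higher and 0.977% lower) and 2.09% of shorter genes with the floor. At an unadjusted p under 0.05, 27 long genes were higher and 44 lower, beside 8.80% and 9.77% of all genes tested. Calls with no overlap between lines made up 0.733% and 0.948% of all genes, and the lines were separate in all 5 long genes that fell. DESeq2 called 8 higher and 21 lower, beside 3.45% and 3.84% of all genes with an adjusted p there. With limma-voom 0 were higher and 6 lower, beside 0.611% and 1.05% of all genes. The median change over the long genes was −0.025, against −0.0019 over all genes tested. With both directions counted, long genes were thus not called more often than others by edgeR. Few genes of any length passed in this comparison. Falls alone were called by edgeR in 1.46% of long genes, against 0.977% of all genes and 1.21% of shorter genes with the floor. Under the unadjusted p, DESeq2 and limma-voom, a larger share of long genes than of all genes was lower, and a smaller share higher. Whether these shares differ beyond chance was not tested.

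The 5 genes that fell do different things. Prkca, protein kinase C alpha (chr11:107933390-108343930, minus strand, 410.5 kb), was at 296, 295, 287 and 274 CPM in MSCV lines, 172, 229, 175 and 210.1 CPM in SFPQ-ABL1 lines and 168, 229.9, 206 and 159 CPM in BCR-ABL1 lines. All 8 lines with a fusion lay below all MSCV lines, by 1.47-fold in SFPQ-ABL1 (−0.55 ± 0.13 (SE) on the log2 scale, adjusted p = 0.0474) and 1.51-fold in BCR-ABL1 (−0.60 ± 0.13 (SE) on the log2 scale, adjusted p = 0.00337). Sh3kbp1, an adaptor that carries Cbl to endocytosed receptors, was at 104, 124, 122 and 131 CPM in MSCV, 74.1, 82.5, 92.7 and 92.9 CPM in SFPQ-ABL1 and 82, 96.8, 88.6 and 88.4 CPM in BCR-ABL1. It too was lower in every line with a fusion than in every MSCV line, 1.4-fold in SFPQ-ABL1 (−0.49 ± 0.10 (SE) on the log2 scale, adjusted p = 0.0315).

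Sil1, a nucleotide exchange factor for the endoplasmic reticulum chaperone BiP, was at 40.1, 32.4, 34.2 and 33.2 CPM in MSCV and 18, 23.4, 23.2 and 26.4 CPM in SFPQ-ABL1 (−0.62 ± 0.12 (SE) on the log2 scale, adjusted p = 0.0305), and at 26.8 ± 2.78 CPM in BCR-ABL1. Mgmt, which repairs alkylated guanine in DNA, was at 34.5, 38.7, 36 and 33.5 CPM in MSCV, 23.3, 25.4, 28.4 and 25.5 CPM in SFPQ-ABL1 (−0.48 ± 0.10 (SE) on the log2 scale, adjusted p = 0.0365) and 37.3, 29.97, 33.6 and 28.4 CPM in BCR-ABL1, whose lines overlapped those of MSCV. Mgmt was also lower in SFPQ-ABL1 than in BCR-ABL1 (−0.33 ± 0.10 (SE) on the log2 scale, adjusted p = 0.0275). That call was lost when any of BCR-ABL1 lines 1 and 3 and SFPQ-ABL1 lines 1, 2 and 4 was left out (adjusted p = 0.0511 to 0.0770), with no normalization factors (0.0733), with all genes of at least 1 count (0.0855) and with sums of exon counts (0.165). Nxpe4, at 2.15 ± 0.249 CPM in MSCV, 0.968 ± 0.248 CPM in SFPQ-ABL1 and 1.72 ± 0.358 CPM in BCR-ABL1, was the one fall past 2-fold, against 0.390% higher and 0.227% lower at that size over all genes (−1.15 ± 0.23 (SE) on the log2 scale, adjusted p = 0.0315).

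Each of these 5 calls was lost when any of several single lines was left out. The adjusted p rose at most to 0.126 for Prkca and 0.104 for Mgmt without SFPQ-ABL1 line 1, and to 0.0907 for Nxpe4, 0.0842 for Sh3kbp1 and 0.0747 for Sil1 without MSCV line 3. In the fit of the 8 libraries of these groups alone, the adjusted p of the 5 genes was 0.0555 to 0.0665. With sums of exon counts in place of gene counts, the calls of Sil1, Prkca and Mgmt were lost (adjusted p = 0.2035, 0.191 and 0.120). Those of Nxpe4 and Sh3kbp1 were kept. Leaving out MSCV line 3 alone left 0 of 343 long genes called lower, and leaving out SFPQ-ABL1 line 2 gave 12.

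In SFPQ-ABL1 against BCR-ABL1, 55 long genes were higher and 56 lower, or 32.4%, against 26.0% of all genes tested (13.2% higher and 12.8% lower) and 30.2% of shorter genes with the floor. The median size of the change, without its sign, was 0.32 on the log2 scale for long genes and 0.27 for shorter genes of the same level. At 2-fold or more, 14 were higher and 13 lower, or 4.08% and 3.79%, against 3.44% and 4.20% of all genes. The call went with separate lines in 43 and 46 genes, against 10.8% and 10.9% of all genes.

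Pdzd2, a scaffold protein with PDZ domains, was at 4.66, 5.13, 3.4 and 10.5 CPM in BCR-ABL1 lines and 35.9, 16.2, 34.3 and 38.3 CPM in SFPQ-ABL1 lines, 5.27-fold higher in the latter (2.40 ± 0.49 (SE) on the log2 scale, adjusted p = 0.0035). The MSCV lines ranged from 7.33 to 40.4 CPM and overlapped both, and BCR-ABL1 was 3.38-fold lower than MSCV (adjusted p = 0.0134). Pik3c2g was 4.73-fold higher (2.24 ± 0.45 (SE) on the log2 scale, adjusted p = 0.00333) and Tns1 3.83-fold (1.94 ± 0.26 (SE) on the log2 scale, adjusted p = 3.46e-04). Ank2 was 3.52-fold higher (adjusted p = 8.96e-04) and F8, which encodes coagulation factor VIII, 2.41-fold (adjusted p = 0.00189). In these genes the SFPQ-ABL1 lines lay above all BCR-ABL1 lines.

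Rgl1, an exchange factor for Ral GTPases, was at 41.2, 43.8, 37.3 and 40.5 CPM in BCR-ABL1 and 88.9, 92.5, 115 and 122 CPM in SFPQ-ABL1 (1.36 ± 0.11 (SE) on the log2 scale, adjusted p = 3.28e-05), and at 93.5, 94.2, 78.2 and 90.3 CPM in MSCV. It was lower in BCR-ABL1 than in every line of both other groups. Csgalnact1, an enzyme that starts chondroitin sulfate chains, was at 18.8, 17.6, 15.7 and 26.8 CPM in BCR-ABL1 and 70.6, 37.6, 75.2 and 71.1 CPM in SFPQ-ABL1 (1.69 ± 0.23 (SE) on the log2 scale, adjusted p = 3.43e-04). SFPQ-ABL1 line 2 lay within the MSCV range, where the mean was 44.5 ± 9.13 CPM (SD, n = 4), and the other 3 lay above it.

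Plch1, a phospholipase C, was lower in SFPQ-ABL1 than in BCR-ABL1, at 1.23, 4.4, 1.36 and 4.19 CPM against 13.9, 25.8, 16.9 and 8.46 CPM (−2.54 ± 0.46 (SE) on the log2 scale, adjusted p = 0.0019), with MSCV between them at 7.21 ± 2.3 CPM. Gtdc1, a glycosyltransferase-like protein, was at 4.72, 10.4, 5.17 and 5.9 CPM against 15.8, 22.7, 18.2 and 23.5 CPM (−1.61 ± 0.24 (SE) on the log2 scale, adjusted p = 5.83e-04). Genes named for a rise in BCR-ABL1 over MSCV can be set beside this comparison, which shares the BCR-ABL1 lines. Trio was 6.12-fold lower (−2.61 ± 0.55 (SE) on the log2 scale, adjusted p = 0.00435), Inpp4b 3.9-fold (adjusted p = 0.00827), Med12l 3.4-fold (adjusted p = 0.00555), Lpp 3.05-fold (adjusted p = 1.22e-04) and Slc7a11 2.94-fold (adjusted p = 1.90e-04). Diaph2 and Cntnap2 did not pass in this comparison (adjusted p = 0.0634 and 0.151).

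By role, 184 of the 343 long genes were on at least 1 of 7 lists, 6 on more than 1. The counts on these lists stand beside 15.8% of all genes tested called higher and 16.3% called lower in BCR-ABL1 against MSCV, 0.814% and 0.977% in SFPQ-ABL1 against MSCV, and 13.2% and 12.8% in SFPQ-ABL1 against BCR-ABL1. Of 47 genes of kinases, GTPase regulators, phosphatases and second messengers, 8 rose and 8 fell in BCR-ABL1 against MSCV (17.0% each, near the share over all genes) with a median change of 0.20 (−0.0081 over all genes tested), and 0 rose and 1 fell in SFPQ-ABL1. Beside Trio, Inpp4b and Pik3c2g these included Sipa1l1, a GTPase activator for Rap, which went from 665, 831, 819 and 852 CPM in MSCV to 413, 542, 422 and 456 CPM in BCR-ABL1 (−0.79 ± 0.11 (SE) on the log2 scale, adjusted p = 2.18e-04) with separate lines. Arhgap6, a GTPase-activating protein, was at 60.7, 66.7, 72.4 and 59.6 CPM in MSCV, 97, 89.5, 88.4 and 86.5 CPM in BCR-ABL1 and 37.3, 54.3, 49 and 33.3 CPM in SFPQ-ABL1. Its groups did not overlap in any pair, and the fusions lay on opposite sides of MSCV, with a 1.39-fold rise in BCR-ABL1 (0.48 ± 0.14 (SE) on the log2 scale, adjusted p = 0.0166). Its difference of SFPQ-ABL1 from MSCV narrowly missed the threshold (−0.58 ± 0.14 (SE) on the log2 scale, adjusted p = 0.0518), while SFPQ-ABL1 was 2.08-fold below BCR-ABL1 (adjusted p = 2.81e-04).

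Of 37 transcription factors and chromatin proteins, 6 rose and 8 fell in BCR-ABL1 against MSCV (16.2% and 21.6%, against 15.8% and 16.3% of all genes) and none was called in SFPQ-ABL1 against MSCV, where 1.79% of all genes were. Runx1, a master regulator of blood cell development, was at 192, 235, 222 and 217 CPM in MSCV, 142, 133, 139 and 119 CPM in BCR-ABL1 and 158, 174, 183 and 181 CPM in SFPQ-ABL1. It fell 1.62-fold in BCR-ABL1 (−0.70 ± 0.09 (SE) on the log2 scale, adjusted p = 1.24e-04), and the SFPQ-ABL1 lines lay between the other groups without overlap, 1.24-fold below MSCV (adjusted p = 0.0889). Zmiz1, a transcriptional coactivator, fell 1.85-fold from 169 ± 28.1 to 91.3 ± 4.04 CPM (−0.89 ± 0.12 (SE) on the log2 scale, adjusted p = 2.18e-04) and Bcas3 1.81-fold from 31 ± 2.28 to 17.1 ± 0.908 CPM (−0.85 ± 0.09 (SE) on the log2 scale, adjusted p = 5.06e-05). Hdac4, a class IIa histone deacetylase, went the other way, at 22.3, 18.1, 19.8 and 19.1 CPM in MSCV, 27.5, 35.8, 34.3 and 41 CPM in BCR-ABL1 and 19.9, 20.5, 18.7 and 21 CPM in SFPQ-ABL1 (0.80 ± 0.12 (SE) on the log2 scale, adjusted p = 3.01e-04 for BCR-ABL1 against MSCV).

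Of 9 RNA-binding and RNA-decay genes, 2 rose and 1 fell in BCR-ABL1 against MSCV. Rbms1, a single-stranded nucleic acid binding protein, rose 1.75-fold from 53.8 ± 4.59 to 94.3 ± 11.2 CPM (0.81 ± 0.11 (SE) on the log2 scale, adjusted p = 1.68e-04), and Thada rose 1.47-fold from 24.4 ± 3.24 to 36 ± 4.83 CPM (0.56 ± 0.12 (SE) on the log2 scale, adjusted p = 0.00317). Thada was at 33.7, 33.1, 36.7 and 34.5 CPM in SFPQ-ABL1 lines, all above the MSCV lines, with an adjusted p of 0.0524. Smg6, the endonuclease of nonsense-mediated decay, fell 1.37-fold from 93.5 ± 9.22 to 68.3 ± 7.9 CPM (−0.45 ± 0.10 (SE) on the log2 scale, adjusted p = 0.00535). Msi2, an RNA-binding protein of stem and progenitor cells, was not called in either comparison with MSCV, and was 1.35-fold higher in SFPQ-ABL1, at 300.3, 270.0, 291 and 330.4 CPM, than in BCR-ABL1, at 216, 264, 212 and 191 CPM (0.43 ± 0.11 (SE) on the log2 scale, adjusted p = 0.0109).

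Of 6 genes of ubiquitin ligases and proteolysis, 2 fell in BCR-ABL1 against MSCV, Asb3 (adjusted p = 0.0183) and Atg7 (adjusted p = 0.0271), with changes of −0.34 and −0.40 on the log2 scale. The Asb3 call was lost without BCR-ABL1 line 3 (0.0575) or line 4 (0.0576), and the Atg7 call without any of MSCV lines 3 and 4 and BCR-ABL1 lines 1 to 3, with at most 0.0806 without MSCV line 3. Of 28 genes of cytoskeleton, adhesion and cell surface, 4 rose and 7 fell (14.3% and 25%). The centrosome gene Cep128 was among the fallen, from 66.9 ± 16.7 to 44.1 ± 2.53 CPM (−0.60 ± 0.14 (SE) on the log2 scale, adjusted p = 0.00657), with 72.5 ± 4.85 CPM in SFPQ-ABL1. Of 44 genes of membrane trafficking, transport and lipid metabolism, 7 rose and 9 fell (15.9% and 20.5%), and in SFPQ-ABL1 against MSCV 0 rose and 1 fell. Trappc9, a subunit of a vesicle tethering complex, fell 1.81-fold from 54.6 ± 9.1 to 30.2 ± 5.19 CPM (−0.85 ± 0.14 (SE) on the log2 scale, adjusted p = 7.38e-04), and Ttc7b rose 1.72-fold from 55.9 ± 9.08 to 96.3 ± 27.7 CPM (0.78 ± 0.17 (SE) on the log2 scale, adjusted p = 0.00341).

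Of 20 genes at common fragile sites or of genome maintenance, 7 rose and 3 fell in BCR-ABL1 against MSCV (35% and 15%, against 15.8% and 16.3% of all genes), 0 were called in SFPQ-ABL1 against MSCV, and 1 was higher and 4 lower in SFPQ-ABL1 against BCR-ABL1. Common fragile sites are stretches that break under replication stress and often lie within very long genes. Bbs9, a subunit of the BBSome of cilia, fell 2.4-fold, from 17.8 ± 4.11 to 7.39 ± 1.23 CPM (−1.27 ± 0.18 (SE) on the log2 scale, adjusted p = 2.59e-04). Immp2l, a mitochondrial inner membrane peptidase gene of 931.5 kb, was at 8.17, 8.65, 9.72 and 9.53 CPM in BCR-ABL1 and 6.12, 6.03, 3.75 and 6.35 CPM in SFPQ-ABL1 (−0.70 ± 0.16 (SE) on the log2 scale, adjusted p = 0.0069), with MSCV between them at 7.09, 7.49, 6.6 and 7.28 CPM and no overlap in any pair. The 159 long genes on no list had 30 rises and 29 falls in BCR-ABL1 against MSCV and 0 and 3 in SFPQ-ABL1 against MSCV.

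Among the 5 longest genes other than Cntnap2, Magi2 was called in 1 comparison and the others in none. Pde4d, a cyclic AMP phosphodiesterase of 1503.5 kb, was at 7.99 ± 2.35, 9.95 ± 4.1 and 8.17 ± 2.24 CPM in MSCV, BCR-ABL1 and SFPQ-ABL1 (SD, n = 4) with overlapping lines. Magi2, a membrane scaffold of 1477.8 kb, was at 2.06, 2.86, 2.18 and 2.62 CPM in MSCV and 1.85, 1.74, 1.65 and 0.837 CPM in BCR-ABL1 (−0.68 ± 0.24 (SE) on the log2 scale, adjusted p = 0.0434). That call was lost when any of MSCV lines 2 to 4, BCR-ABL1 lines 2 to 4 or SFPQ-ABL1 line 4 was left out, with adjusted p up to 0.101 without MSCV line 2. Lingo2, of 1245.1 kb, was at 0.579, 0.444, 1.2 and 0.89 CPM in MSCV and 0.228, 0.312, 0.426 and 0.327 CPM in SFPQ-ABL1, 2.4-fold lower with separate lines and an adjusted p of 0.104. Kcnip4, a potassium channel interacting protein of 1135.4 kb, was at 0.583 ± 0.167, 0.559 ± 0.141 and 0.685 ± 0.179 CPM.

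Per kilobase of exon the most highly expressed long genes were Mecom (192 RPKM), Fut8 (165), Fam107b (131), Angpt1 (118) and Pik3c2g (52.0). Mecom, a zinc finger transcription factor of blood stem cells, was at 2554, 1909, 3201 and 3088 CPM in MSCV, 2189, 1942, 1774 and 2182 CPM in BCR-ABL1 and 2694, 1641, 2517 and 2993 CPM in SFPQ-ABL1, with overlapping lines in every pair. Fut8, which adds the core fucose of N-glycans, fell 1.28-fold in BCR-ABL1, from 1486 ± 58 to 1158 ± 102 CPM (−0.36 ± 0.09 (SE) on the log2 scale, adjusted p = 0.00826). Fam107b fell 2.07-fold, from 718 ± 81.4 to 347 ± 39 CPM (−1.05 ± 0.13 (SE) on the log2 scale, adjusted p = 1.24e-04), and has a RefSeq span of 77330 bases. Angpt1, a ligand of the receptor Tie2, was at 654 ± 81.6, 625 ± 102 and 569 ± 138 CPM and was not called in any comparison.

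At the threshold of 200000 bases, Umad1 (200182 bases), Ppp1r12b (201284) and Pbx3 (201685) were just inside, with mean levels of 26.4, 9.25 and 14.3 CPM and changes of −0.42, −0.30 and −0.23 in BCR-ABL1 against MSCV. Atp9b (199919 bases), Clec16a (199539) and Bckdhb (199095) were just outside, with 59.3, 53.6 and 26.8 CPM and changes of 0.05, 0.09 and 0.53. No test was made between them.

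The exon counts were also compared along each gene, as the ratio of counts on distal exons to counts on proximal exons. Exons were split at the middle of the span, and 162 long genes had at least 10 exon counts in each part in all libraries, among 6548 genes tested. No long gene was called by limma in any of the 3 comparisons, against 0.0611% of all genes in BCR-ABL1 against MSCV and 0% in each of the others. At an unadjusted p under 0.05 there were 45 of 162 with BCR-ABL1 over MSCV (27.8%, against 11.8% of all genes tested), 6 with SFPQ-ABL1 over MSCV (3.70% against 3.12%) and 13 with SFPQ-ABL1 over BCR-ABL1 (8.02% against 4.40%). The median log2 change of distal over proximal counts in long genes was −0.40, −0.24 and 0.20, and in shorter genes it was −0.26, −0.12 and 0.14.

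Single libraries stood apart in this ratio. In MSCV line 2 the median ratio was 0.98 above the average of the libraries for long genes and 0.63 for shorter genes, whereas lines 1, 3 and 4 of MSCV were at 0.17, −0.012 and −0.30 for long genes. The BCR-ABL1 lines were at −0.057, −0.19, −0.26 and −0.32, and the SFPQ-ABL1 lines at 0.23, −0.061, −0.14 and −0.15. Shorter genes moved with the long ones in each library, and the part of RNA quality in this shift was not tested. With the median over shorter genes taken out of each library, an adjustment chosen after seeing the data, 0 long genes were called in each comparison. Without that adjustment 0 were called as well, so these calls cannot show whether the shared shift accounts for the excess at the unadjusted threshold. Long genes still passed the unadjusted threshold of 0.05 in BCR-ABL1 against MSCV after the adjustment, with falls outnumbering rises.

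**Figure D5:**
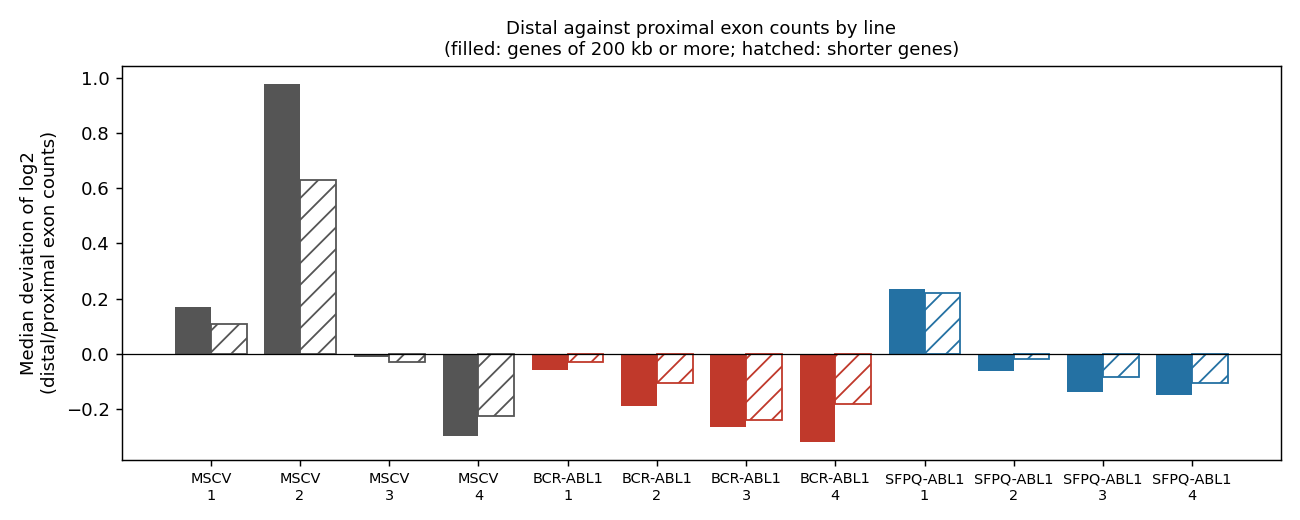
Median deviation of log2 distal over proximal exon counts from the average over libraries (y axis, log2 units) in each of the 12 lines, for 162 long genes (filled) and 6298 shorter genes (hatched). MSCV line 2 stands apart at 0.98 and 0.63, and in every line except MSCV line 3, where both values lie near 0, the long genes deviate further than the shorter ones in the same direction.

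Among single long genes, Fryl had the smallest adjusted p in BCR-ABL1 against MSCV. Its log2 ratio was 5.66, 6.81, 5.62 and 4.56 in MSCV lines 1 to 4, 4.41, 3.61, 4.49 and 4.12 in BCR-ABL1 lines and 5.67, 4.44, 5.17 and 5.06 in SFPQ-ABL1 lines. The BCR-ABL1 lines all lay below the MSCV lines (change −1.50 ± 0.38 SE, limma adjusted p = 0.305), on 15 to 143 proximal counts per library. Atxn7l1 had a ratio of 1.18 ± 0.52 in MSCV, 0.0045 ± 0.37 in BCR-ABL1 and 1.30 ± 0.60 in SFPQ-ABL1 (SD, n = 4, limma adjusted p = 0.358 for BCR-ABL1 against MSCV and 0.424 for SFPQ-ABL1 against BCR-ABL1). For Igf1r, the receptor of insulin-like growth factor 1, it was 6.18 ± 0.39, 5.43 ± 0.39 and 5.27 ± 0.081, with every SFPQ-ABL1 line below every MSCV line (change −0.91 ± 0.23 SE, limma adjusted p = 0.971). Among shorter genes, Abl1 served as a check, on the assumption that reads of the ABL1 part of both fusions count on its distal exons. The species of the fusion sequences is not given in the sources used here. In the planned test its ratio was 2.07 higher in BCR-ABL1 than in MSCV (limma adjusted p = 0.0494). It was 2.16 higher in SFPQ-ABL1 than in MSCV, which was not called (limma adjusted p = 0.0955). With library medians taken out, a choice made after seeing the data, it was 2.34 higher in BCR-ABL1 (limma adjusted p = 0.00184) and 2.28 higher in SFPQ-ABL1 (0.00766).

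The lists of genes that act in paraspeckles, elongation, transcript ends and DNA strain were read against the 32.1% of all genes called in BCR-ABL1 against MSCV and the 1.79% called in SFPQ-ABL1 against MSCV, 2 comparisons that share the MSCV lines. Of 8 DBHS and paraspeckle genes, Neat1 fell in BCR-ABL1, from 414 ± 113 to 214 ± 112 CPM with overlapping lines (−0.95 ± 0.31 (SE) on the log2 scale, adjusted p = 0.0298), and Matr3 rose there (adjusted p = 0.0207). In SFPQ-ABL1, 1 gene of this list was called higher than in MSCV, beside 0.814% of all genes tested. Against BCR-ABL1, 1 was called higher in SFPQ-ABL1, beside 13.2% of all genes. Of 47 pause release and elongation factors tested, 8 rose and 8 fell in BCR-ABL1 against MSCV, near the 15.8% and 16.3% of all genes, and 0 were called in SFPQ-ABL1 against MSCV. Hexim1, which holds the elongation kinase P-TEFb inactive, fell from 153 ± 18.8 to 68 ± 15.3 CPM (adjusted p = 1.19e-04) and Eaf1, a partner of ELL, rose from 67.4 ± 5.1 to 245 ± 54.1 CPM (adjusted p = 1.17e-05). Of 24 U1 snRNP and cleavage-polyadenylation genes, 8 rose and 3 fell, and of 6 topoisomerases 2 rose, among them Top2b, which relieves strain on transcribed DNA (0.44 ± 0.08 (SE) on the log2 scale, adjusted p = 0.00132). For both lists no gene was called in SFPQ-ABL1 against MSCV.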

How the data were processed

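RNA-seq libraries of 12 Ba/F3 lines were used, 4 each of MSCV, BCR-ABL1 and SFPQ-ABL1. The values are raw read counts per gene and per exon, as deposited by the authors, and the submitters' processing notes name Subread, featureCounts and mm10. For versions, settings and strand, nothing is given in the sources used here. The gene table holds more reads than the exon table, and its counts were the values tested. Spans, exons and overlaps came from the annotation columns and GENCODE M21, and promoters from RefSeq (GRCm38.p6).

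Counts were tested in edgeR 4.0.16 (R 4.3.3) with TMM scaling, its filter on low counts and the quasi-likelihood test over all 12 libraries, with Benjamini-Hochberg adjustment over 17197 genes and a threshold of 0.05. Exon counts distal and proximal to the middle of the span were compared as log2((distal + 0.5)/(proximal + 0.5)) with limma 3.58.1. DESeq2 1.42.0 and limma-voom were alternatives. Shorter genes were weighted to the long genes in 10 classes of mean level. Both tests were tested on simulated data. For BCR-ABL1 against MSCV the gene test, over 16721 genes, recovered 64.6% of 2-fold and 90.6% of 4-fold changes with 7 false calls. For SFPQ-ABL1 against MSCV the exon test, over 6548 genes, recovered 99% of 4-fold changes with 4 false calls. The simulated ratios had no shift shared by the genes of a library, such as that of MSCV line 2. The recovered share may therefore be too high for the real libraries. There the exon test did not call Abl1 in SFPQ-ABL1 against MSCV (log2 change 2.16, limma adjusted p = 0.0955). The labels call the lines of a group biologically independent, and p-values measure the spread between these lines.

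The members, the lists and the tests were chosen with earlier results of these data known. Named long genes were, per comparison, the up to 8 largest rises and 8 largest falls among called genes with separate lines and at least 2 CPM in the higher group, up to 4 called genes per role list by smallest adjusted p, the 5 longest, the 5 highest by RPKM, the 3 nearest each side of the threshold and up to 5 by the exon test. Predicted or clone names were passed over, and some genes are not reported here. Of these, a selection is described, and Sfpq, Nono, Pspc1 and called genes of the other lists were named as well. Alternatives, among them other spans, floors, scalings, filters, tools and each line left out, are compared in the closing section.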

Additional observations from a re-analysis of the deposited data

Results flagged for a closer look

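Groups of 4 lines were checked for the named long genes and for per-line summaries of the long genes, 195 groups in all. Of these, 8 had 1 line whose gap to its nearest neighbour took up most of the range of the group, all of them for single genes. Chance gives about 1 in 20 such groups. Such lines lay low for Sox6, at 11 CPM in SFPQ-ABL1 line 2 against 48.7 to 52.2 CPM in the other 3, for Csgalnact1, at 37.6 CPM in that line against 70.6 to 75.2 CPM, and for Fam107b, at 481 CPM there against 671 to 708 CPM. Tns1 was high in SFPQ-ABL1 line 2, at 6.18 CPM against 3.66 to 3.97 CPM. Trio was high in SFPQ-ABL1 line 4, at 8.09 CPM against 1.19 to 2.31 CPM, and Immp2l was low in SFPQ-ABL1 line 3, at 3.75 CPM against 6.03 to 6.35 CPM. Atp8a1, a phospholipid flippase gene, was high in BCR-ABL1 line 4, at 129.6 CPM against 88.7 to 95.4 CPM, and Kcnip4 was low in BCR-ABL1 line 3, at 0.349 CPM against 0.617 to 0.651 CPM. Of these 8, 4 were in SFPQ-ABL1 line 2.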

How the results depend on the processing

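Among the 87 calls of named genes, 87 were kept with RLE size factors, 83 with no normalization factors, 84 with all genes of at least 1 count, 87 with DESeq2, 86 with limma-voom, 81 in fits of the 8 libraries compared, 73 with sums of exon counts and 76 to 85 with 1 line left out. No call reversed in any of these.

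Counts of long genes follow as higher and lower. With a span of 100000 bases or more they were 261 and 181 for BCR-ABL1 against MSCV, 9 and 12 for SFPQ-ABL1 against MSCV, and 147 and 210 for SFPQ-ABL1 against BCR-ABL1. With 500000 bases or more they were 8 and 10, 0 and 0, and 6 and 10. More or fewer genes were counted, and the balance of directions moved as well. Genes of 100 to 200 kb were called higher in 24.9% and lower in 14.1% for BCR-ABL1 against MSCV. For SFPQ-ABL1 against BCR-ABL1 those shares were 11.4% and 19.1%. At a cutoff of 100000 bases the median difference from matched shorter genes was 0.11 for BCR-ABL1 against MSCV. At 500000 bases it was −0.14 for SFPQ-ABL1 against MSCV and −0.25 for SFPQ-ABL1 against BCR-ABL1. With matching on exonic length it was −0.13 for BCR-ABL1 against MSCV, and the cause was not tested.

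SFPQ-ABL1 against MSCV moved most, from 0 and 5. It gave 1 higher with no count floor, 3 and 3 with no normalization factors, 2 and 9 with all genes of at least 1 count, 8 and 21 with DESeq2, 1 lower in the fit of the 8 libraries, 1 and 3 with sums of exon counts, and 3 and 8 without MSCV line 2, BCR-ABL1 line 4 and SFPQ-ABL1 line 2 together. Sums of exon counts, which are lower, gave 32 higher in BCR-ABL1 against MSCV and 36 lower in SFPQ-ABL1 against BCR-ABL1. The causes of these shifts were not tested. The RefSeq span, exonic-length matching, leaving out 3 libraries together and centring of the exon ratio were chosen after seeing the data.

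With 1 line left out, BCR-ABL1 against MSCV gave 45 (without BCR-ABL1 line 2) to 64 higher and 52 to 74 lower, SFPQ-ABL1 against MSCV 0 to 1 higher and 0 (without MSCV line 3) to 12 lower (without SFPQ-ABL1 line 2), and SFPQ-ABL1 against BCR-ABL1 37 (without SFPQ-ABL1 line 3) to 61 higher and 39 to 63 lower. The median differences ranged from −0.020 to 0.043, −0.060 to 0.0060 and −0.080 to −0.0043. The exon test gave 0 to 0, 0 to 0 and 0 to 1 long genes, the 1 in SFPQ-ABL1 against BCR-ABL1 without MSCV line 2.

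Same-numbered lines had correlations of deviations between −0.0063 and 0.38, over 0.1 in 7 of 12 pairs, and other pairs between −0.35 and 0.23, over 0.1 in 6 of 36. Of the 24 cases of a line set against another group, 12 correlated best with their own number. The labels name no shared origin for a number and not every pair passed 0.1, so the numbers were not taken to pair the lines, although the data hint at it. With the replicate number as a block the counts were 73 and 76 for BCR-ABL1 against MSCV, 6 and 13 for SFPQ-ABL1 against MSCV, and 64 and 72 for SFPQ-ABL1 against BCR-ABL1, and all 87 named calls were kept.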
